A study of Mus musculus with 6 samples.

Results

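Messenger RNA levels of 9 genes of bone morphogenetic protein (BMP) signalling were examined in native cardiac fibroblasts (CFs). They were chosen by gene symbol: the ligands *Bmp2*, *Bmp4* and *Bmp6*, the receptors *Bmpr2* and *Bmpr1a*, the antagonist *Grem1*, and the target genes *Id1*, *Id2* and *Id3*. All 9 were found among the 49548 genes of the count table. The samples were 3 WT and 3 CharmeKO samples from hearts of C57BL/6J mice aged 5 weeks. CharmeKO mice carry a polyadenylation signal inserted into the locus of *Charme*, a long noncoding RNA of cardiomyocytes, and the labels name no treatment for either group. The cells were non-cardiomyocytes released by enzymatic dissociation, after lysis of red cells and immunomagnetic removal of hematopoietic lineages. The methods describe them as freshly isolated, whereas the labels also give a culture medium for the same samples. The methods name 3 WT and CharmeKO mice as the source of the hearts but tie no library to an animal, so p-values are read as measuring the spread between these samples.

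BMPs are secreted dimers that bring together type I receptors such as BMPR1A and type II receptors such as BMPR2, and the active complex phosphorylates SMAD1, SMAD5 and SMAD9. These enter the nucleus with SMAD4 and switch on *Id1*, *Id2* and *Id3*, whose proteins bind basic helix-loop-helix transcription factors and keep them from binding DNA. Antagonists such as Gremlin 1, the product of *Grem1*, bind the ligands outside the cell. In the heart the pathway is known for its part in the formation of cushions and valves from the endocardium and in the activation of fibroblasts.

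SMADs are known to act on the *Id* genes, so the promoter windows of *Id3* and *Id2* are shown. The windows run from 250 bases before to 50 after the transcription start and come from RefSeq on GRCm38.p6. That of *Id3* is chr4:136143572-136143871 on the plus strand and that of *Id2* is chr12:25096043-25096342 on the minus strand. Capitals mark GGCGCC, the core of a BMP response element, and CAGAC, a SMAD-binding element, on either strand (CAGAC on the opposite strand reads GTCTG).
*Id3*: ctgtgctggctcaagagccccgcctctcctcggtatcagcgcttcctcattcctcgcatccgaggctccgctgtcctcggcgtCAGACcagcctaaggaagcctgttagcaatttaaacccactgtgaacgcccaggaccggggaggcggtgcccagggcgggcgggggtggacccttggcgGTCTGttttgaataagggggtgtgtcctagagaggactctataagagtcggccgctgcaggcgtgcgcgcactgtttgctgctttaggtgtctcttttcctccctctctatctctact
*Id2*: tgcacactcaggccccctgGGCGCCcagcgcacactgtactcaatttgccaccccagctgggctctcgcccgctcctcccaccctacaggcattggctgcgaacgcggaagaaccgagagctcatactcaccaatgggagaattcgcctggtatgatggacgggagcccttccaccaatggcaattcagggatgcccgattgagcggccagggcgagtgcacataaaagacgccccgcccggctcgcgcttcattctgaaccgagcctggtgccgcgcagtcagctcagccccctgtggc

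The *Id3* window held CAGAC at 2 places, whose first bases lay at -167 and -68 from the start, and no GGCGCC. The *Id2* window held GGCGCC at -231 and no CAGAC, and no match overlapped another. Of the 9 genes, 7 had a window (*Bmp2* and *Id1* had none), and GGCGCC was found in 4 of these, *Bmpr2*, *Bmpr1a*, *Grem1* and *Id2*, against 11.9% of all 32851 promoters. GGCGCC holds only G and C, and the GC content of these 4 windows was 59.3% (*Bmpr2*) to 79.3% (*Bmpr1a*). The share over all promoters was not matched for GC content, so the comparison cannot show an excess. CAGAC was found in 3 of the 7, *Bmp6*, *Grem1* and *Id3*, against 49.6% of all promoters. These matches describe letters only and were not set against binding or against the spread between libraries. Bases outside the windows were not searched.

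The reads counted on genes numbered 9595701 to 42101393 in the WT libraries and 23550718 to 31048606 in the CharmeKO libraries, and where a gene had no count, as many as 3 counts remain possible, or 0.0713 to 0.313 CPM, a scale that divides each count by its library's total. *Charme* had 26, 15 and 4 counts in WT replicates 1, 2 and 3 and 7, 0 and 0 counts in CharmeKO replicates 1, 2 and 3. All 10 fibroblast markers examined had counts in these libraries, with a summed level of 42689 to 45170 normalized CPM in WT and 35185 to 44128 in CharmeKO. Markers of other cells were present as well, and none of the marker genes was at 0. The 10 endothelial markers, whose cells the lineage depletion does not target, summed to 6774 to 8567 normalized CPM in WT and 7216 to 8767 in CharmeKO. The 6 erythroid markers summed to 26776 to 39218 in WT and 24403 to 31733 in CharmeKO, and the 10 leukocyte markers to 28.8 to 53.9 and 39.1 to 51.0. The 10 cardiomyocyte markers summed to 389 to 498 in WT and 575 to 885 in CharmeKO, without overlap. All 10 had a positive fold change and 3 were called higher, against 0.418% of all tested genes. The groups did not overlap for 8 of the 10, against 18.2% of all tested genes. *Xist* was abundant in WT 1, CharmeKO 1 and CharmeKO 2, and Y-linked transcripts in WT 2, WT 3 and CharmeKO 3, so both genotypes fell on both sides of this split. The split was not complete. CharmeKO 1 also had 136 Y-linked counts beside 13553 of *Xist*. WT 2 had 67 counts of *Xist* beside 2967 Y-linked counts, and CharmeKO 3 had 9 beside 2916.

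To see which parts of the pathway the native CF samples express, levels were first compared as normalized CPM per kilobase of exon, over all 6 libraries. The libraries also held endothelial and erythroid transcripts, so no level can be assigned to fibroblasts alone. The *Id* genes stood at the top of the 9 and the ligand *Bmp2* was the lowest of those with counts. *Id1* was at 320 ± 127 (SD, n = 6), rank 102 among 15764 tested genes with a length, and *Id3* at 223 ± 71.2, rank 161. *Id2* followed at 44.2 ± 3.50, rank 931.

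The ligands *Bmp4*, at 36.8 ± 6.40 normalized CPM per kilobase (SD, n = 6), and *Bmp6*, at 33.03 ± 6.00, could not be ordered, since *Bmp4* was above *Bmp6* in 4 of 6 libraries. The receptors were lower, *Bmpr2* at 11.3 ± 1.51 and *Bmpr1a* at 9.33 ± 1.15. *Bmp2* was at 8.61 ± 1.56 and below *Bmpr1a* in 4 of 6 libraries. The other neighbours in this order kept it in 6 of 6 libraries. For *Id1* and *Id3* the order depended on the length: with the longest coding transcript, 1160 bases for *Id1* and 1278 for *Id3*, in place of all annotated exons, 1160 and 1791 bases, the levels were 320 ± 127 and 312 ± 99.8, and *Id3* was above *Id1* in 2 of 6 libraries.

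**Figure D1:**
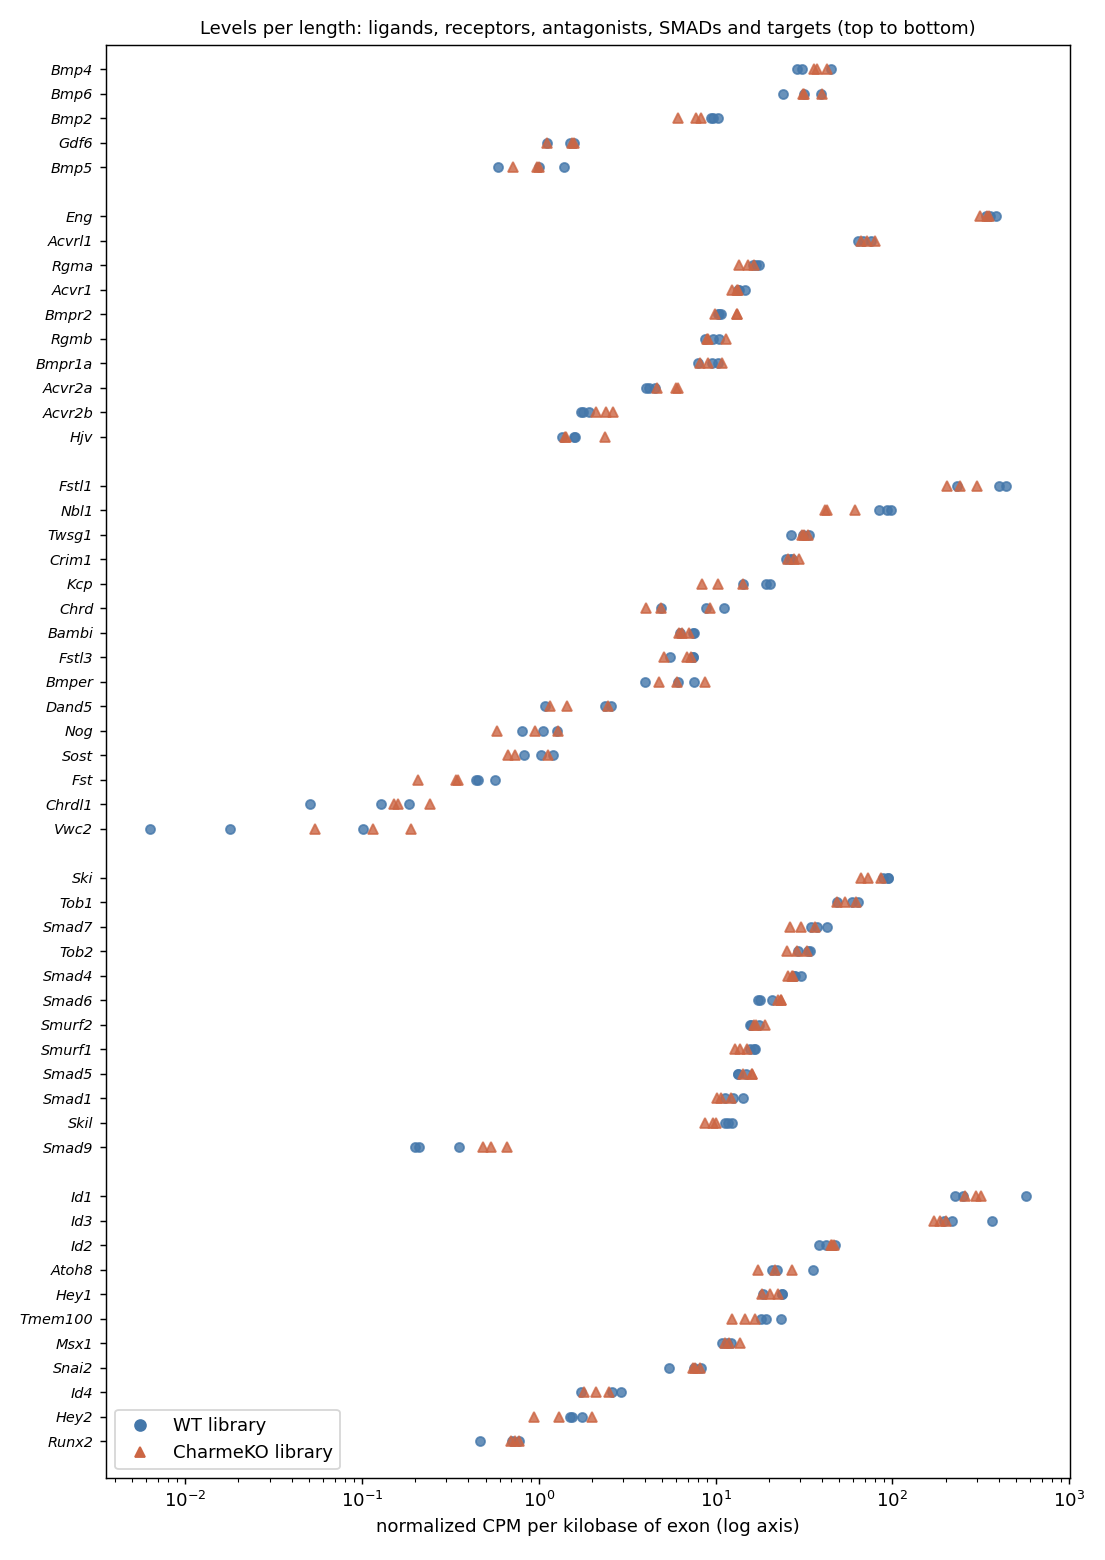
Level of each tested gene of 5 BMP gene lists in each library, as normalized CPM per kilobase of exon on a log axis; circles are the 3 WT and triangles the 3 CharmeKO libraries. *Id1* and *Id3* lie near the co-receptor *Eng* and the antagonist *Fstl1* at the right, and *Bmp4* and *Bmp6* lie to the right of the other ligands.

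The comparison of CharmeKO with WT asks whether the loss of a cardiomyocyte transcript goes along with a change of BMP signalling genes in the stromal cells. None of the 8 genes that could be tested passed the threshold, an adjusted p-value under 0.05 in edgeR's quasi-likelihood test, which 131 of 15789 tested genes (0.830%) passed, 0.412% lower and 0.418% higher in CharmeKO. With 8 genes, a count of 0 is also what this share would leave. An unadjusted p under 0.05 was found for 2 of the 8, *Bmp2* and *Id3*, both with a negative fold change, against 12.8% of all tested genes. The log2 fold changes of the 8 had a median of 0.06, against 0.01 for all tested genes, with 5 positive and 3 negative. In bulk samples such as these, fewer cells of a type and less RNA per cell cannot be told apart. Values below are normalized CPM of replicates 1, 2 and 3 in this order.

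**Figure D2:**
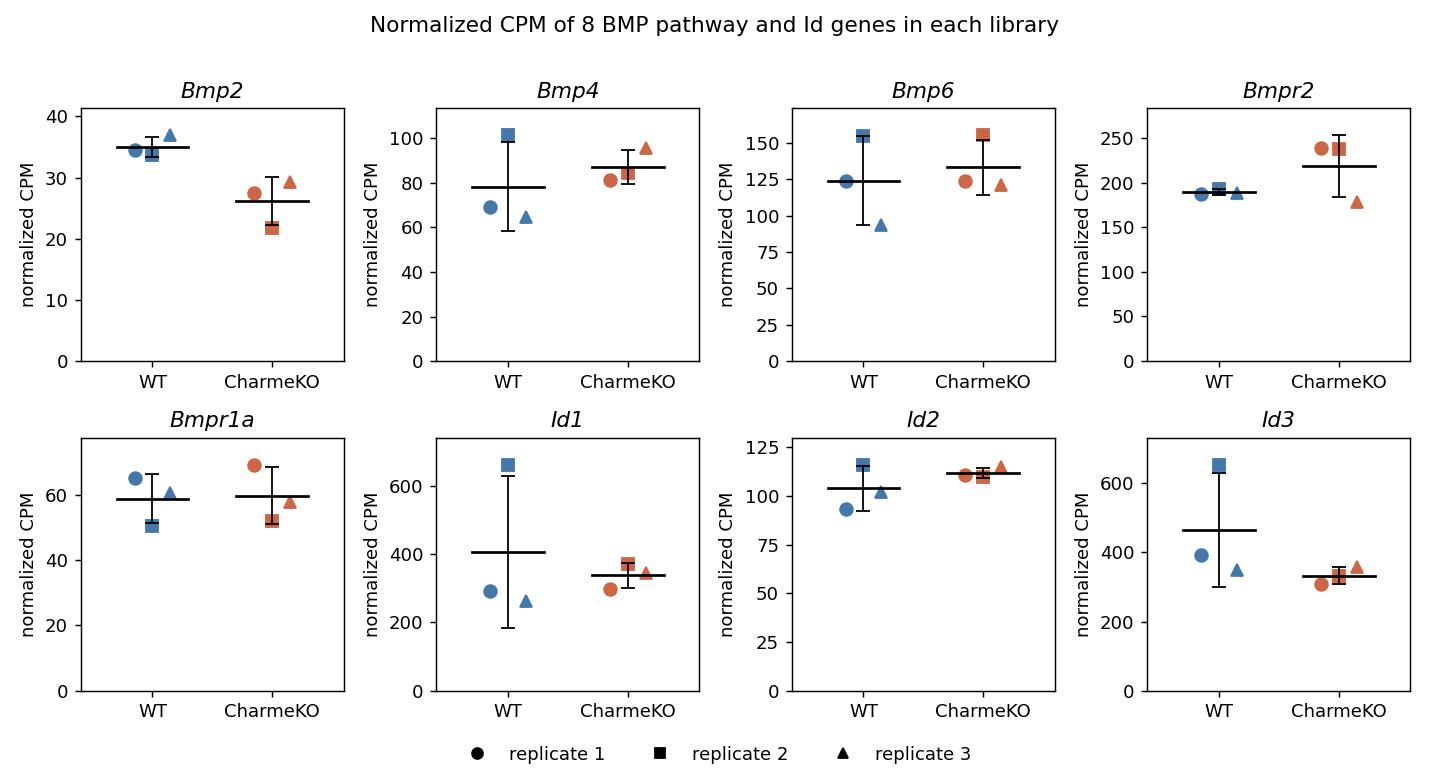
Normalized CPM of the 8 tested genes in each library (circle, square and triangle for replicates 1, 2 and 3), with the mean of each group as a line and its SD as a bar, on axes that start at 0. *Bmp2* alone has all 3 CharmeKO libraries below the WT libraries, and WT replicate 2 is far above the other libraries for *Id1* and *Id3*.

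Among the ligands, *Bmp2* (ENSMUSG00000027358), which in the developing heart drives the formation of the atrioventricular cushions, was at 34.5, 33.7 and 36.9 in WT and 27.4, 21.8 and 29.3 in CharmeKO. It was the only one of the 8 genes whose groups did not overlap, against 18.2% of all tested genes in either direction and 8.59% with CharmeKO below WT. The means were 35.0 ± 1.64 and 26.2 ± 3.91 (SD, n = 3 each), and the log2 fold change was −0.42 (SE 0.14, 95% interval −0.72 to −0.12, unadjusted p = 0.0104, edgeR adjusted p = 0.241).

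Leaving out single libraries gave *Bmp2* differences of −0.51 to −0.30, and the direction was also kept on both sides of the *Xist* and Y-linked split, at −0.50 with 1 WT and 2 CharmeKO libraries and −0.27 with 2 and 1. It did not pass the threshold in any of the 15 alternatives. The summed levels of 2 marker lists were also lower in every CharmeKO library than in every WT library. The 5 endocardial markers (*Npr3*, *Plvap*, *Vwf*, *Cytl1* and *Hapln1*), all with counts, summed to 708 to 837 in WT and 522 to 611 in CharmeKO. Of the 5 genes, 4 had a negative and 1 a positive fold change, and 1 was called lower. The 7 epicardial markers, all with counts, summed to 57.0 to 72.9 and 34.1 to 41.0, with 1 of 6 tested genes called lower, against 0.412% of all tested genes. The part of endocardial or epicardial cells in the level of *Bmp2* was not tested.

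*Bmp4* (ENSMUSG00000021835), a ligand widely expressed in mesenchyme, was at 69.1, 101 and 64.7 in WT and 81.1, 84.5 and 95.8 in CharmeKO. WT replicate 2 was the highest of all and the other 2 WT libraries were the lowest, so the groups overlapped. The log2 fold change was 0.15 (SE 0.16, 95% interval −0.20 to 0.50, edgeR adjusted p = 0.764), and without WT replicate 2 it was 0.38.

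*Bmp6* (ENSMUSG00000039004), which is made by endothelial cells in several organs and controls hepcidin in the liver, was at 124, 155 and 93.5 in WT and 124, 155 and 121 in CharmeKO. The first 2 replicates of each group had nearly the same values and WT replicate 3 was the lowest. Its log2 fold change of 0.10 (SE 0.17, 95% interval −0.28 to 0.48, edgeR adjusted p = 0.858) became −0.06 without WT replicate 3 and −0.02 without CharmeKO replicate 2. All 3 ligands therefore had intervals that leave out a change of 1 on the log2 scale in either direction.

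The type II receptor gene *Bmpr2* (ENSMUSG00000067336), mutated in hereditary pulmonary arterial hypertension, was at 187, 193 and 189 in WT and 239, 237 and 178 in CharmeKO. The WT libraries lay close together, with a coefficient of variation of 1.596%, while CharmeKO replicates 1 and 2 were above them and replicate 3 was below. The log2 fold change was 0.20 (SE 0.14, 95% interval −0.09 to 0.50, edgeR adjusted p = 0.570). It was 0.35 among the *Xist* libraries and −0.10 among the Y-linked libraries, the side of CharmeKO replicate 3.

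The type I receptor gene *Bmpr1a* (ENSMUSG00000021796), which encodes ALK3, was at 65.2, 50.6 and 60.5 in WT and 69.2, 52.0 and 57.9 in CharmeKO. The groups overlapped over nearly their whole range. The log2 fold change was 0.02 (SE 0.14, 95% interval −0.28 to 0.32, edgeR adjusted p = 0.966), and its sign turned under 4 of 15 alternatives.

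The antagonist *Grem1* (ENSMUSG00000074934) had 0 counts in all 6 libraries, which allows up to 0.313 CPM in the shallowest and 0.0713 CPM in the deepest library. It was the only one of the 9 genes without counts and was not tested. *Grem1* mRNA was thus not detectable at this depth in either genotype, whereas *Bmp4*, which Gremlin 1 binds, had 602 to 2940 counts per library.

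Of the targets, *Id1* (ENSMUSG00000042745), the *Id* gene most often used as a readout of SMAD1 and SMAD5 activity, was at 292, 660 and 261 in WT and 298, 369 and 344 in CharmeKO. WT replicate 2 was far above every other library, and the other 2 WT libraries were the lowest of the 6. The coefficient of variation was 54.9% in WT and 10.8% in CharmeKO. The log2 fold change was −0.26 (SE 0.29, 95% interval −0.89 to 0.36, edgeR adjusted p = 0.764), the widest interval of the 8 genes.

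Without WT replicate 2 the *Id1* difference turned to 0.28 (unadjusted p = 0.0581, edgeR adjusted p = 0.351). It was 0.18 among the *Xist* libraries and −0.27 among the Y-linked libraries, to which WT replicate 2 belongs. The direction for *Id1* thus rests on this library.

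*Id3* (ENSMUSG00000007872), which is often induced together with *Id1*, was at 392, 653 and 349 in WT and 308, 333 and 358 in CharmeKO. WT replicate 2 was again the highest, and WT replicate 3 lay below CharmeKO replicate 3, so the groups overlapped. The means were 465 ± 165 and 333 ± 25.1 (SD, n = 3 each), and the log2 fold change was −0.48 (SE 0.21, 95% interval −0.93 to −0.03, unadjusted p = 0.0389, edgeR adjusted p = 0.362).

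The *Id3* difference was −0.16 without WT replicate 2 (edgeR adjusted p = 0.635) and between −0.65 and −0.42 without each of the others. It was −0.29 among the *Xist* libraries and −0.42 among the Y-linked libraries. *Id3* passed the threshold only when genes with as little as 1 count in any library were kept. There its log2 fold change was −0.48 (edgeR adjusted p = 0.0412), and 699 of 24579 tested genes passed.

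*Id2* (ENSMUSG00000020644), needed for the development of innate lymphoid cells and also under the control of other pathways, was at 93.4, 116 and 102 in WT and 111, 110 and 115 in CharmeKO. WT replicate 2 was the highest of the 6 here too, but by little. The coefficient of variation was 10.9% in WT and 2.43% in CharmeKO, and the SD over the 6 libraries, 0.12 on the log2 scale, was the lowest of the 8 genes. The log2 fold change was 0.11 (SE 0.11, 95% interval −0.15 to 0.36, edgeR adjusted p = 0.767).

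The high *Id1* and *Id3* of WT replicate 2 went along with other values of the same library. Of 15 genes that dissociation is known to induce, 12 were highest in WT replicate 2, and the share over all tested genes was not counted. The summed level of all 15 was 35838, 52791 and 37894 normalized CPM in WT and 44341, 40593 and 46145 in CharmeKO. The 13 immediate early genes among them, set apart after the values were seen, summed to 34124, 51976 and 36472 and to 41158, 37026 and 42244. The heat-shock genes *Hspa1a* and *Hspa1b*, the other 2, went the other way, with sums of 1714, 815 and 1422 in WT and 3183, 3567 and 3901 in CharmeKO. Both were called higher in CharmeKO, against 0.418% of all tested genes, and none of the 13 immediate early genes was called in either direction. The endothelial markers summed to 7021, 8567 and 6774 in WT and 7216, 8767 and 7960 in CharmeKO, highest in CharmeKO replicate 2 and then in WT replicate 2. The part of either in the *Id* levels was not tested.

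**Figure D3:**
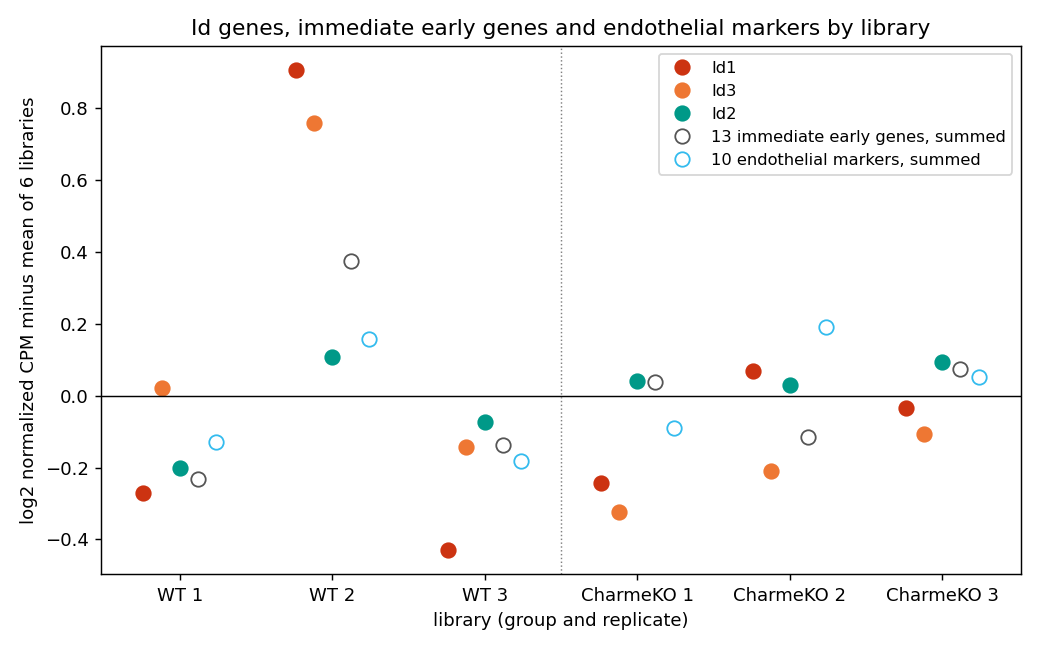
Log2 normalized CPM of *Id1*, *Id2* and *Id3* (filled) and of the summed immediate early genes and endothelial markers (open) in each library, as the difference from the mean of the 6 libraries. *Id1*, *Id3* and the immediate early genes have their highest value in WT replicate 2, and *Id2* moves little.

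Ratios of 2 genes within a library do not depend on the scaling between libraries. The log2 ratio of *Bmp2* to *Bmp4* counts was −1.001, −1.587 and −0.811 in WT and −1.56, −1.95 and −1.71 in CharmeKO. The means were −1.13 ± 0.40 and −1.74 ± 0.20 (SD, n = 3 each), a difference of −0.61 (two-sided exact permutation test, p = 0.2, adjusted over 5 ratios p = 0.75), and WT replicate 2 lay within the CharmeKO range.

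The log2 ratio of *Id1* to *Id3* was −0.42, 0.02 and −0.42 in WT and −0.05, 0.15 and −0.06 in CharmeKO. WT replicate 2 lay among the CharmeKO libraries, and the difference of 0.29 was not distinguishable from the spread (two-sided exact permutation test, p = 0.3, adjusted p = 0.75). The differences for *Bmp6* to *Bmp4*, *Id2* to *Id1* and *Bmpr2* to *Bmpr1a* were −0.05, 0.25 and 0.17, with exact permutation p-values of 0.9, 0.8 and 0.6. With 3 libraries against 3 the smallest p that these permutations can give is 0.1, so no ratio could pass 0.05.

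The 9 genes were then read among 77 genes of the pathway in 6 lists, which include the 9. Of the 77, 74 had a count and 59 were tested, and the values for the 59 include the 8 genes described above. A single gene of the 59 passed the threshold, and it was lower in CharmeKO, as were 0.412% of all tested genes. An unadjusted p under 0.05 was found for 10 of the 59, against 12.8% of all tested genes, and the groups did not overlap for 13, against 18.2%. The median log2 fold change was −0.10, with 26 positive and 33 negative values, against 0.01 for all tested genes.

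That gene was *Nbl1*, which encodes a secreted protein of the DAN family of BMP antagonists, to which Gremlin 1 also belongs. It was at 172, 190 and 201 in WT and 86.96, 84.5 and 126 in CharmeKO, so that every CharmeKO library was below every WT library. The log2 fold change was −0.92 (SE 0.16, 95% interval −1.27 to −0.57, edgeR adjusted p = 0.0201). Leaving out single libraries moved it from −1.13 to −0.81, but the adjusted p was 0.0534 without WT replicate 1, 0.0894 without WT replicate 3, 0.162 without CharmeKO replicate 1 and 0.136 without CharmeKO replicate 2. Within the split it was −1.003 among the *Xist* libraries and −0.63 among the Y-linked libraries. The endocardial and epicardial marker sums given above moved in the same direction, and their part was not tested.

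Of 14 ligand genes, 5 were tested and none was called, with a median log2 fold change of 0.03. Besides the 3 described, *Bmp5* was at 4.04, 2.36 and 5.59 in WT and 3.94, 4.05 and 2.86 in CharmeKO, and *Gdf6*, a growth and differentiation factor of the BMP family, at 5.29, 3.92 and 5.59 and at 5.62, 3.93 and 5.42. *Bmp8b* had no count, and the other 8 ligands had between 7 and 29 counts over all libraries. *Bmp4*, *Bmp6* and *Bmp2* were thus the most abundant of the ligand transcripts, per length as well.

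Of 11 receptors and co-receptors, 10 were tested and none was called, with a median of 0.05. The lowest p-values belonged to the activin type II receptors, which also bind BMPs. *Acvr2a* was at 23.8, 25.8 and 23.0 in WT and 34.0, 34.8 and 26.4 in CharmeKO, without overlap (log2 fold change 0.39, unadjusted p = 0.0168, edgeR adjusted p = 0.278). *Acvr2b* was at 7.57, 6.996 and 6.77 and at 9.46, 10.4 and 8.28, also without overlap (log2 fold change 0.39, edgeR adjusted p = 0.399). These were the only 2 of the 10 without overlap, which is near the share of 18.2% over all tested genes. Per length, the endothelial co-receptor *Eng* and the type I receptor *Acvrl1* were far above *Bmpr2* and *Bmpr1a*, at 349 ± 24.7 and 71.1 ± 6.04 normalized CPM per kilobase (SD, n = 6).

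Of 20 antagonists and modulators, 15 were tested, with a median of −0.13. *Nbl1* was the only one called. *Kcp*, which encodes a secreted chordin-like protein that enhances BMP signalling, was at 112, 150 and 159 in WT and 65.3, 81.1 and 112 in CharmeKO, the highest CharmeKO library lying just under the lowest WT library (log2 fold change −0.70, SE 0.19, edgeR adjusted p = 0.159). It passed the threshold under some alternatives, such as DESeq2 (adjusted p = 0.0158). *Fstl1*, a follistatin-like glycoprotein made by fibroblasts, was at 2148, 1148 and 1965 and at 1194, 1005 and 1489. WT replicate 2 lay among the CharmeKO libraries, and the log2 fold change of −0.51 (edgeR adjusted p = 0.374) was −0.74 without it (edgeR adjusted p = 0.0365). *Cer1*, like *Grem1*, had no count.

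All 12 SMAD genes and regulators of SMADs were tested and none was called, although the groups did not overlap for 6 of them (the share over all tested genes was 18.2%). CharmeKO was below WT for *Smad4*, *Smurf1*, *Ski* and *Skil* and above it for *Smad9* and *Smad6*. Their median was −0.13. *Smad9*, the least abundant of the BMP-activated SMADs, was at 1.13, 1.90 and 1.08 in WT and 2.86, 3.56 and 2.60 in CharmeKO (log2 fold change 1.11, SE 0.36, unadjusted p = 0.0104, edgeR adjusted p = 0.241). *Skil*, a corepressor of SMADs, was at 120, 109.7 and 114 and at 97.05, 84.5 and 94.2 (log2 fold change −0.32, edgeR adjusted p = 0.262). *Smad6*, the inhibitory SMAD of this branch and itself a target of it, was at 56.1, 67.1 and 57.4 and at 75.2, 75.5 and 72.4 (log2 fold change 0.30, unadjusted p = 0.0172, edgeR adjusted p = 0.280). *Smad7* had a negative log2 fold change, −0.30, with overlapping groups (edgeR adjusted p = 0.420).

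Of 14 *Id* genes and other targets, 11 were tested and none was called, with a median of −0.19. *Tmem100*, an endothelial target of ALK1 signalling, was at 31.8, 33.9 and 41.3 in WT and 25.8, 21.8 and 29.6 in CharmeKO, without overlap (log2 fold change −0.46, unadjusted p = 0.0102, edgeR adjusted p = 0.241). *Id4*, the least abundant *Id* gene, was at 6.67 to 11.2 in WT, and its log2 fold change was −0.20 (edgeR adjusted p = 0.769). None of the 6 tested basic helix-loop-helix partners was called, with a median of −0.02. *Twist2* was at 10.6, 11.9 and 13.01 and at 7.26, 4.05 and 12.5 (edgeR adjusted p = 0.492), and *Tcf21*, a factor of resident cardiac fibroblasts, at 85.9, 103 and 84.6 and at 104, 98.5 and 103 (edgeR adjusted p = 0.619).

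**Figure D4:**
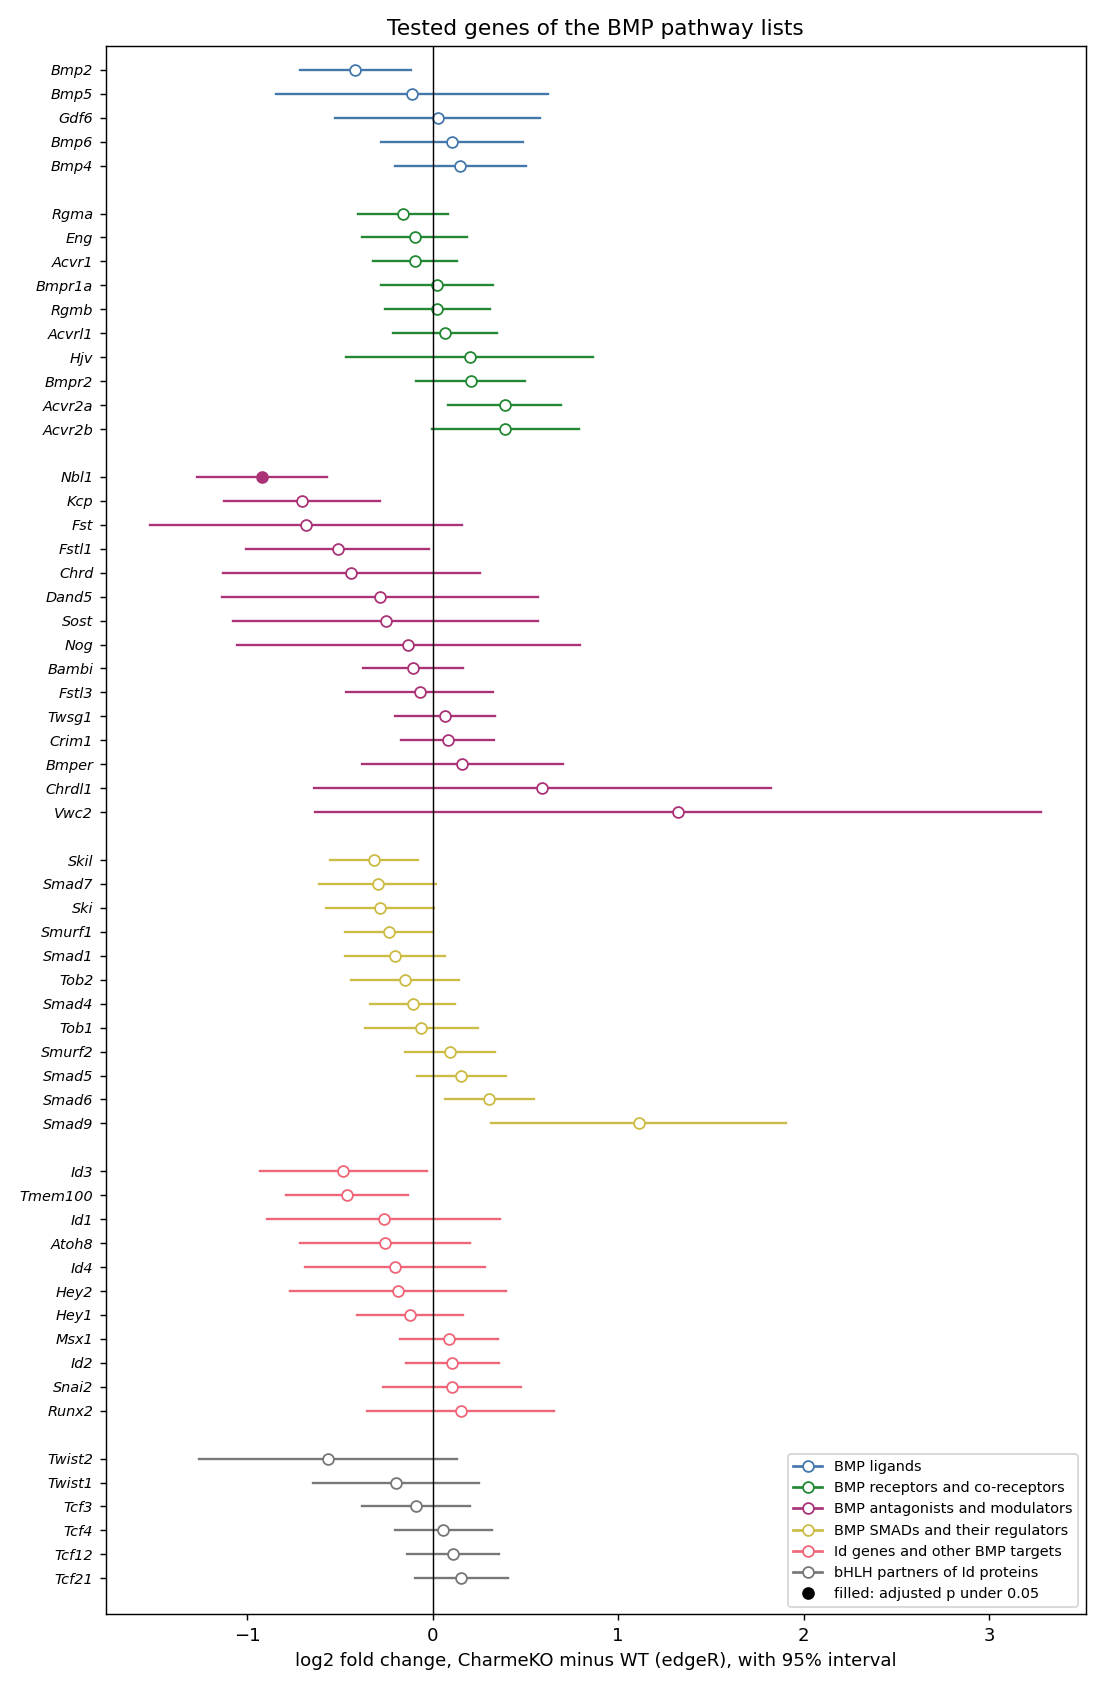
Log2 fold change, CharmeKO minus WT, of the 59 tested genes of the 6 pathway lists with 95% intervals from edgeR; colours mark the lists and the filled point marks an adjusted p under 0.05. *Nbl1*, at −0.92, is the filled point, and the intervals of *Bmp4*, *Bmp6*, *Bmpr2*, *Bmpr1a*, *Id1* and *Id2* cross 0.

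For each of the 8 genes, the tested gene with the most similar profile over the 6 libraries was found among 8897 genes with a mean of at least 10 CPM, as the smallest root mean square difference of centred log2(CPM + 1) values. These likenesses describe 6 libraries that share their depth and preparation. For *Bmp2* it was *Rassf2*, with a difference of 0.0355 on the log2 scale, for *Bmp4* it was *Cdh23*, at 0.0305, and for *Bmp6* it was *Wars1*, at 0.0384. For the receptors it was *Secisbp2l* (*Bmpr2*, 0.0236) and *Tbx20* (*Bmpr1a*, 0.0356).

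None of the 8897 genes followed *Id1* or *Id3* as closely as these, and their own SDs over the 6 libraries, 0.48 and 0.39 on the log2 scale, were the largest of the 8. The nearest to *Id1* was *Pltp*, which encodes phospholipid transfer protein, at 0.148, the nearest to *Id3* was *Enpp2*, which encodes autotaxin, at 0.0872, and the nearest to *Id2* was *Osbpl2*, at 0.0251. To the mean of the 3 *Id* genes, *Dock6*, *Katnip*, *Clasrp* and *Gata2* were among the nearest, at 0.0557 to 0.0603. Among the 8 genes themselves, *Bmp4* and *Id2* had the smallest difference, at 0.147, and *Id1* and *Id3* differed by 0.215. The measure is not scaled by how much a gene varies. Genes that vary little, such as *Id2* with an SD of 0.12, therefore come out close to others, and these differences do not rank shared patterns.

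**Figure D5:**
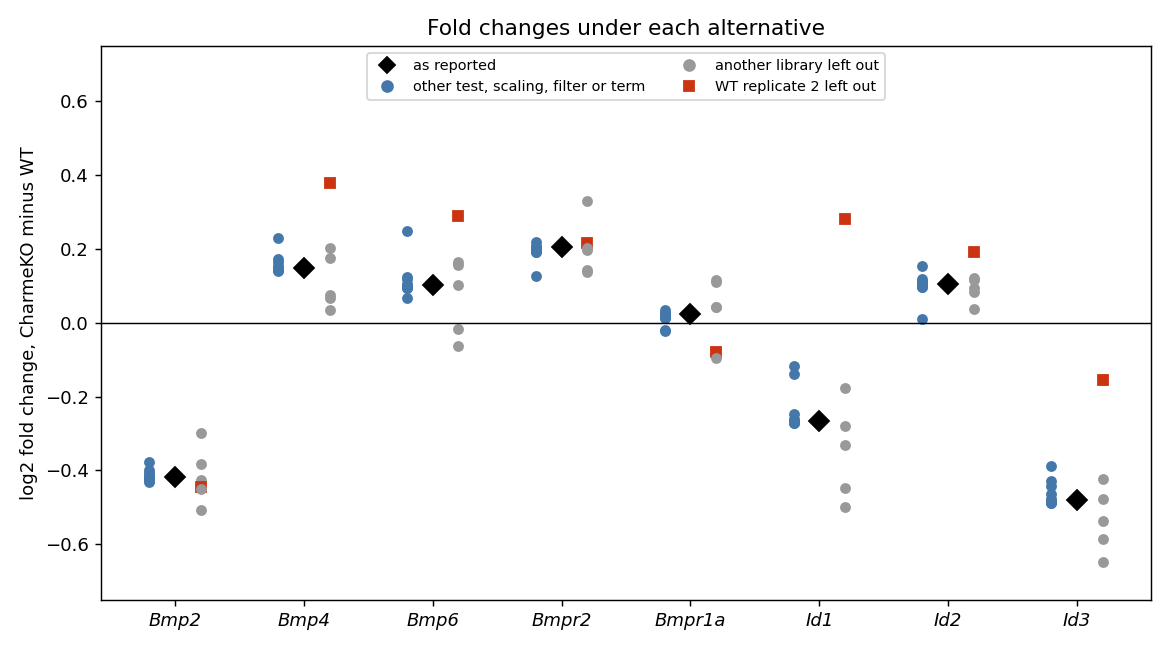
Log2 fold change, CharmeKO minus WT, of the 8 tested genes as reported (diamond), with another test, scaling, filter or model term (blue), and with 1 library left out (grey, or a red square for WT replicate 2). *Bmp2* and *Id3* stay below 0 and *Bmp4*, *Bmpr2* and *Id2* above 0 throughout, while *Bmp6*, *Bmpr1a* and *Id1* have points on both sides.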

How the data were processed

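Poly(A) RNA of 3 WT and 3 CharmeKO native CF samples was sequenced in directional libraries. Reads passing a quality filter were aligned by the authors to a mouse assembly with STAR. They counted them on Ensembl genes with *Charme* added, kept the "reverse" strand setting, and deposited raw counts without normalization or filter. A minimum of 10 counts in 2 or more libraries left 15789 genes, which were tested with edgeR 4.0.16 (R 4.3.3; TMM, quasi-likelihood, Benjamini-Hochberg over all tested genes, threshold 0.05), and normalized CPM used TMM factors. The biological coefficient of variation was 20.2%. Standard errors and intervals came from the F statistics. The fit was tested on simulated data. Ratios used counts + 0.5. Lengths came from GENCODE on GRCm38. The sources name the assembly and annotation of the counts in ways that leave their build unclear, so coordinates are given only for the RefSeq promoter windows.

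No near-identical copy of the 9 genes (97% identity over 50% of the longest transcript, blastn 2.17.0) and no exon of another gene on the same strand was found. The members and lists were chosen with earlier results of these data known. Named pathway genes were those past the threshold and, in each list, the 2 others with the lowest p, and *Bmp5*, *Gdf6*, *Eng*, *Acvrl1*, *Smad4*, *Smad6*, *Smad7*, *Smurf1*, *Ski*, *Id4* and *Cer1* were added after their values were seen. Alternatives were DESeq2 1.42.0, 2 other scalings, 3 other gene filters, the replicate number as a block, a term for the *Xist* and Y-linked split, removal of GC and length trends, each library left out, and ratios with other pseudocounts. Depth limits and intervals of counts cover counting error only. Figures were drawn with matplotlib 3.10.9. Some genes that the naming rule covers are not reported here.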

Additional observations from a re-analysis of the deposited data

How the results depend on the processing

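Over 15 alternatives for each of the 8 genes, 112 of 120 fold changes kept their direction and their side of the threshold, 7 changed sign and 1 passed the threshold. *Id3* passed when genes with as little as 1 count in any library were kept (−0.48, edgeR adjusted p = 0.0412). This made 1 of the 8 genes past the threshold, against 699 of 24579 tested genes. *Bmpr1a* turned to −0.022 with the *Xist* and Y-linked term and to −0.019 with GC and length trends removed. With single libraries left out, the log2 fold changes ranged from −0.51 to −0.30 for *Bmp2*, 0.03 to 0.38 for *Bmp4*, −0.062 to 0.29 for *Bmp6*, 0.14 to 0.33 for *Bmpr2*, −0.094 to 0.12 for *Bmpr1a*, −0.50 to 0.28 for *Id1*, 0.04 to 0.19 for *Id2*, −0.65 to −0.16 for *Id3* and −1.13 to −0.81 for *Nbl1*. The log2 ratio of *Bmp6* to *Bmp4* ranged from −0.19 to 0.083 and that of *Id2* to *Id1* from −0.089 to 0.49.

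The number of DEGs was 131, of which 65 were lower. It was 394 (240 lower) with DESeq2 and 699 (446 lower) with a filter of 1 count in any library. With single libraries left out it was 61 to 349 (26 to 218 lower), the most without WT replicate 2. With GC and length trends removed, 43 were lower. Pathway genes past the threshold, 1 as reported, were 2 with DESeq2 (*Nbl1* and *Kcp*), 3 with the filter of 1 count (*Id3*, *Nbl1* and *Kcp*) and 0 to 2 with single libraries left out. The share of DEGs that were higher was 50.4% as reported and 39.1% with DESeq2, 36.2% with the filter of 1 count, 38.1% with the replicate block, 37.5% without WT replicate 2 and 36.5% without CharmeKO replicate 3. It was 57.7% without WT replicate 1, 56.7% without WT replicate 3, 57.4% without CharmeKO replicate 1, 58.2% without CharmeKO replicate 2 and 57% with GC and length trends removed. The causes were not tested.

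Samples of the 2 groups share replicate numbers. Deviations of same-numbered libraries correlated at 0.216, 0.0535 and 0.161, and every library correlated best with its own number. These correlations do not settle whether the numbers pair the samples, and the main fit did not pair them. With the replicate block there were 302 DEGs (187 lower) and 2 pathway genes, *Nbl1* (edgeR adjusted p = 0.00293) and *Kcp* (edgeR adjusted p = 0.00884), and none of the 8 genes passed.

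WT replicate 3, with 9595701 counts, was the shallowest library. With 3 libraries a group and the spread measured here, the 95% intervals of the 8 genes were wide. They reached 0.50 for *Bmp4* and *Bmpr2*, −0.72 for *Bmp2*, −0.89 for *Id1* and −0.93 for *Id3*. Changes of these sizes could thus go without a call.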
